A study of Homo sapiens with 2 samples.

Results

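The genes described here encode the proteins of the cytosolic ribosome. They were taken by name from the deposited table, as every gene named RPL or RPS with a number (with the endings A, X, L, AL or L1) plus RPLP0, RPLP1, RPLP2 and RPSA. This gave 86 of the 47352 gene names in the table, 53 of the large subunit and 33 of the small subunit. For a name with several transcript listings the longest listing was used.

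The data are 1 m6A immunoprecipitated (IP) library and 1 input library from GM12878, an established human lymphoblastoid line of B cells transformed with Epstein-Barr virus. Cells of both libraries grew in RPMI with 15% serum, with no drug or gene change named in the labels, and gave total RNA that was fragmented. The IP library holds the fragments bound by an antibody against N6-methyladenosine, a methylated adenosine of messenger RNA, and the input library holds fragments without that selection. Because each group has 1 library, no difference below has a replicate check, and no SD or p-value is given. Intervals are exact 95% intervals for the error of counting alone, because reads copied in PCR are no independent molecules.

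A source label of both samples names mouse embryonic stem cells, whereas the organism and cell line labels name human GM12878. The input went with the cell line label. All 8 B cell markers were measured, at 9.93 to 775 scaled coverage, and 0 of 6 pluripotency markers and 0 of 5 fibroblast markers were, none above 0.93. Of 6 T cell markers, CD3E alone was measured, at 1.52. On the longest listings the coverage corresponded to about 56.9 M reads in the IP and 50.3 M in the input.

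Ribosomal protein genes are among the most strongly transcribed genes of growing cells. Their mRNAs are short, start with a run of pyrimidines called a 5′ TOP, and are translated under control of the kinase mTOR through the repressor LARP1. Many carry small nucleolar RNAs in their introns. In mammalian mRNA, m6A is written by the METTL3 and METTL14 complex and is known to lie mostly in long internal exons, near stop codons and in 3′ untranslated regions.

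The first bases of the mRNA were read from RefSeq promoter sequences of build GRCh38.p14, in which 68 of the 86 genes were matched. A 5′ TOP was taken as a C at the annotated start followed by 4 bases that are each C or T, read on the transcribed strand. Of the 68 genes, 43 (63.2%) had it, against 1104 of all 27305 genes with a promoter sequence (4.04%). Those 27305 were not limited to names in the deposited table. It was found in 11 of 14 other known TOP mRNAs (78.6%) and 5 of 74 mitochondrial ribosomal protein genes (6.76%). When the run could begin up to 5 bases from the start, the shares were 76.5% of ribosomal protein genes and 21.1% of the 27305 genes. The sequences below belong to the genes on which the results turn. First come the 4 with a locally enriched region and the 3 with the highest gene-wide IP over input. RPS29 and RPS24, with enriched 3′ parts, and RPS3A, with the lowest gene-wide IP over input, follow. Each sequence holds 20 bases before the annotated start and 20 from it. The pyrimidine run from the first base is in capitals where a 5′ TOP was found.
RPL29 (GRCh38.p14, chr3:51995876-51995915, minus strand): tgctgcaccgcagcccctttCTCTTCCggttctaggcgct
RPL27A (chr11:8682772-8682811, plus strand): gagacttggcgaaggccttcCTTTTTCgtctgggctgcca
RPL28 (chr19:55385912-55385951, plus strand): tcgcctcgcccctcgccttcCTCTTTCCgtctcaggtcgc
RPL13 (chr16:89560637-89560676, plus strand): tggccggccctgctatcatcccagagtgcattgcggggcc
RPL41 (chr12:56116613-56116652, plus strand): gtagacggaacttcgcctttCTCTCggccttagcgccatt
RPL36AL (chr14:49620607-49620646, minus strand): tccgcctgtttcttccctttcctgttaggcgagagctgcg
RPL7L1 (chr6:42879596-42879635, plus strand): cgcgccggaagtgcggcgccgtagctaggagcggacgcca
RPS29 (chr14:49598691-49598730, minus strand): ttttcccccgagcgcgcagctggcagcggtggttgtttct
RPS24 (chr10:78033843-78033882, plus strand): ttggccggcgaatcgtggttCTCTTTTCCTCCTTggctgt
RPS3A (chr4:151099608-151099647, plus strand): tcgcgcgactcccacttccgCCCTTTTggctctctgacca

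A start without the run says only that these letters do not stand at the annotated position. Among measured genes, the 43 with a 5′ TOP at the start had a median gene-wide log2 IP over input of -0.37, and the 24 without it had -0.39. Regions lay in 3 genes with the run and in 1 without it (RPL13). The ratio of IP to input was thus alike at the median in genes with and without these letters at the start.

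Levels are given as mean scaled coverage per window, which is coverage per length. Comparison between genes is limited by the listing used, since uncovered windows of a long listing lower its mean. A unit of scaled coverage corresponds to about 10 reads per window in the IP and 15.8 in the input. Of the 86 genes, 84 had a mean input coverage of at least 1 and are called measured. The 2 others are paralogs with restricted expression. RPL10L, a testis gene that backs up the X-linked RPL10, had 0.23 in the IP and 0.38 in the input, and RPL3L, a gene of striated muscle, had 0.0041 in the IP and 0.0026 in the input.

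Ribosomal protein transcripts took a smaller share of the IP than of the input. They held 1.83% of all IP coverage and 3.87% of input coverage in 0.105% of the windows. Over the 84 measured genes the median level in the IP was 88.0, against 121 in the input. Over all 10767 measured genes it was 7.09 in the IP, against 3.75 in the input. Among the 100 genes with most coverage, 11 in the IP and 10 in the input were ribosomal protein genes.

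RPLP1, an acidic protein of the stalk that contacts elongation factors, had the highest input level, with 436 in the IP and 536 in the input. RPS2, of the small subunit near the mRNA entry site, had 325 in the IP and 395 in the input. RPLP0, the base of the stalk, had 244 in the IP and 388 in the input. All 3 of these highly covered genes were lower in the IP than in the input.

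**Figure D1:**
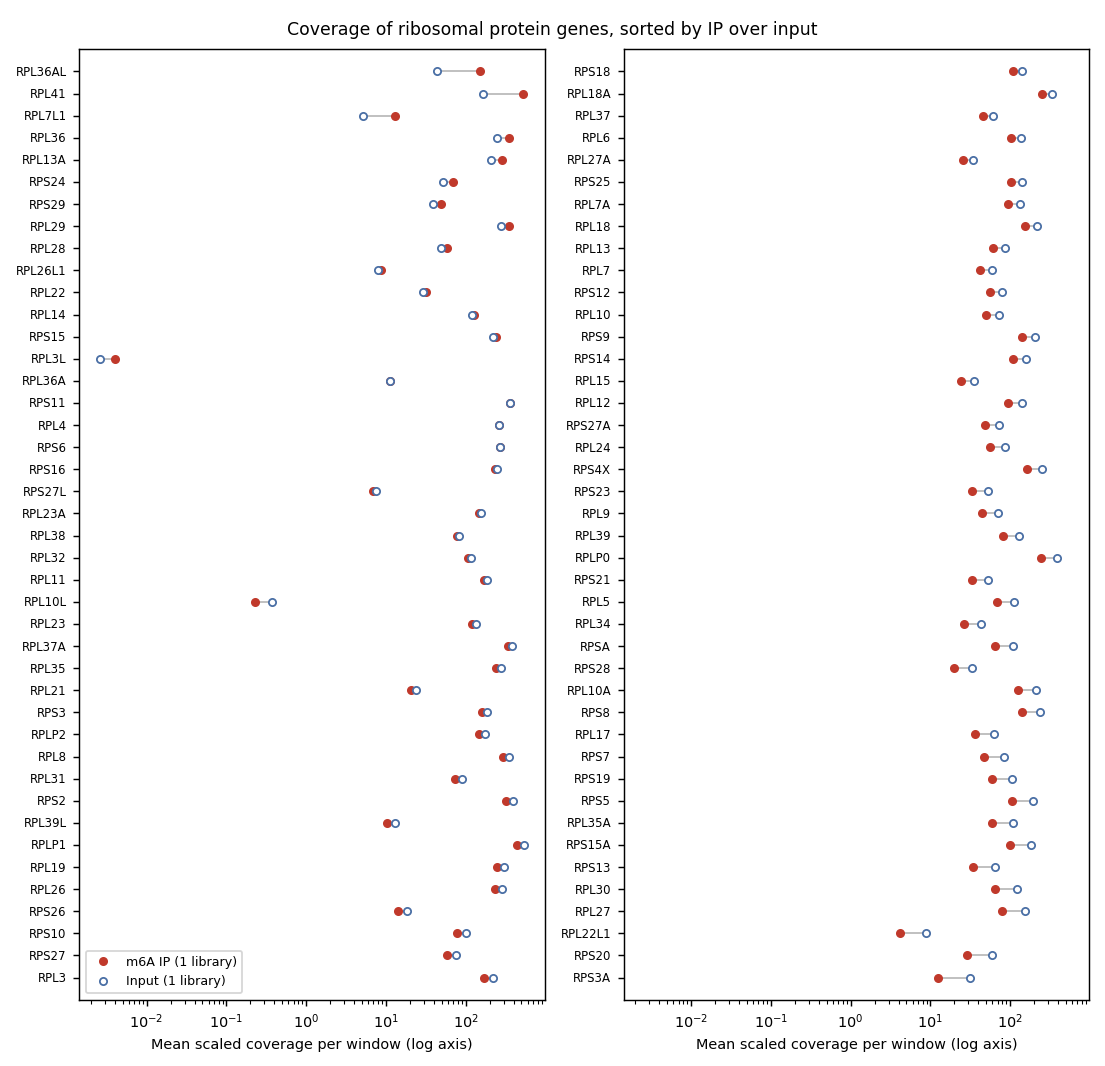
Mean scaled coverage per window (log axis) of 84 of the 86 ribosomal protein genes in the m6A IP library (filled) and the input library (open), sorted by log2 IP over input from the upper left to the lower right. Most genes lie to the left in the IP; RPL36AL, RPL41 and RPL7L1 lie furthest to the right of their input, and RPS3A furthest to the left.

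The gene-wide ratio, log2 of mean IP coverage plus 1 over mean input coverage plus 1, was below 0 in most of the group. It was below 0 in 71 of the 84 measured genes, and 32.7% of all measured genes were below 0. The median was -0.39 (range -1.28 to 1.76), against 0.34 over all measured genes, and 78 of the 84 genes lay below that overall median. How each library was scaled is not stated, so 0 is not a measured point of no enrichment, and the position among all genes is the firmer reading.

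At least 2-fold more IP than input over the whole gene was found in 3 of the 84 (30.7% of all measured genes). RPL36AL, a paralog of the X-linked RPL36A, had 153 in the IP and 44.4 in the input, a ratio of 3.44 (3.32 to 3.57). RPL41, the shortest ribosomal protein, had 522 in the IP and 167 in the input, a ratio of 3.13 (3.08 to 3.19). RPL7L1, related to RPL7, had 13.1 in the IP and 5.15 in the input, a ratio of 2.55 (2.37 to 2.74). These 3 stood apart from the rest of the family, in which the next highest values were 0.51 for RPL36 (352 in the IP, 246 in the input) and 0.48 for RPL13A (290 in the IP, 208 in the input) on the log2 scale. RPL36 and RPL13A were picked for mention after their values were seen.

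At the other end, 1 of the 84 genes was at least 2-fold lower in the IP, a share near the 2.16% of all measured genes. RPS3A, of the small subunit, had 12.4 in the IP and 31.6 in the input, a log2 ratio of -1.28. RPS20 had 29.2 in the IP and 59.2 in the input (-0.996), and RPL22L1, a paralog of RPL22, had 4.12 in the IP and 8.93 in the input (-0.96). No gap separated these genes from the next: RPL27, of the large subunit and picked after its value was seen, was at -0.94. Counted only on windows with at least 10% of the gene's highest input, 4 of the 84 were at least 2-fold lower. They were RPS29 (-1.42), RPS3A (-1.36), RPL22L1 (-1.07) and RPS20 (-1.01). The share of all measured genes by that limit is not given here.

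Coverage itself goes with the ratio across all genes, so the family was set beside other genes of its own level. Among genes with input of at least 100, the 48 ribosomal protein genes had a median log2 ratio of -0.38, and the 193 other genes had -0.48. With input from 10 to 100, the 32 ribosomal protein genes had -0.47, and the 1868 other genes had 0.09. At the middle level the median of the family was the lower, and at the highest level it was not. The other genes of the highest level include short non-coding RNA listings (median 16.5 windows in ribosomal protein genes and 7 in the others). Of these 193, 153 had at most 30 windows, with a median of 4 windows and a median log2 ratio of -0.86. These 153 held 120 of the 139 others below 0 and all 71 that were at least 2-fold lower in the IP. Whether the family lies below abundant transcripts of like length therefore cannot be read from these medians. The part of level and length in these values was not tested further.

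The deposited window score asks a different question. It is log2 of the IP in a window relative to the gene's IP median over the input in that window relative to the gene's input median, with 1 added to each number. It measures a window against its own gene and divides out enrichment that the whole gene shares. A region here is a run of at least 2 consecutive windows with a score of at least 2, which is 4-fold, and the gene-level score is the highest mean of 2 consecutive windows.

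By this measure 4 of the 84 measured genes had a region (4.76%, interval 1.31 to 11.7%), where 44.2% of all measured genes had. The 4 genes were RPL13, RPL29, RPL27A and RPL28, all of the large subunit, and each region lay in the 3′ terminal exon. The 33 small subunit genes had 0 regions (up to 10.6% by the interval) against 4 in 51 of the large subunit, and this difference between subunits was not tested. Of 2023 windows, 15 scored at least 2 (0.741%, interval 0.416 to 1.22%), against 5.75% of the windows of all measured genes. They lay in 8 genes. The median gene-level score was 0.95, against 1.81 over all measured genes. Besides the 4 genes with a region and RPL31, 34 genes scored between 1 and 2 and 45 scored under 1.

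RPL13 had the highest score of the family, 2.97. Its region covers windows 5 to 8 of exon 5, with 314, 192, 183 and 163 in the IP against 36.3, 27.4, 31.8 and 31.3 in the input. At the peak the ratio was 8.66 (7.92 to 9.48) and the score 3.13. These windows stand where input drops: window 3 of the same exon had 499 in the IP and 506 in the input, and window 4 had 300.3 in the IP and 91.5 in the input. Input at the peak was 2.77% of the gene's highest input window (1309). The region thus lies on a low-coverage stretch downstream of the heavily covered exons, about 1050 nt from the 5′ end of a listing that runs on for another 3700 nt.

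RPL29 had the only region of the family within its well covered windows, those with at least 10% of the gene's highest input. By that limit 1 of the 84 genes kept a region, and 42.8% of all measured genes had one. The gene is on the minus strand, and its windows 1 to 3 form the 3′ end of the mRNA. They held 1001, 1525 and 1379 in the IP against 447, 723 and 944 in the input. The highest score, 2.78, came with a ratio of 2.24 (2.17 to 2.31). The score is higher than the ratio because the median window of the gene had 71.8 in the IP and 222 in the input, so the 3′ end is compared with a gene body that held less IP than input. Without centring on the gene medians the gene-level score of RPL29 was 1.12, below the threshold.

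RPL27A and RPL28 had their regions on windows with few reads, far from the bulk of the transcript. RPL27A had 9.38 and 16.4 in the IP and 1.08 and 2.1 in the input in windows 63 and 64 of exon 5, a ratio of 7.81 (5.35 to 11.7) at the peak. RPL28 had 14.7 and 17.0 in the IP and 1.15 and 1.21 in the input in windows 77 and 78 of exon 4, a ratio of 14.1 (8.78 to 24.1) at the peak. Input at these peaks was 0.287% and 0.139% of the highest input window of RPL27A and RPL28. In RPL28 the well covered windows of the same exon also leaned to the IP: window 7 had 1428 and window 8 had 1677 in the IP, against 749 and 869 in the input. Exons 2 and 3 of RPL28 leaned to the input, with 163 in the IP and 318 in the input in window 1 of exon 2. Whether the distant windows of RPL27A and RPL28 belong to the same RNA as the covered exons was not tested.

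Just short of a region came RPL31, with a gene-level score of 2.05 but windows of 1.98 and 2.12. RPL31 had 14.7 and 19.7 in the IP and 3.23 and 4.08 in the input there, in exon 5, again at 0.529% of its highest input. RPL21 scored 1.90 at its 3′ end, where window 3 of exon 6 had 41.5 in the IP and 24.96 in the input. RPL4 scored 1.76 at its 3′ end, where window 1 of exon 1 had 146 in the IP and 58.9 in the input, and window 3 had 1185 in the IP and 571 in the input. All 3 peaks lay in the 3′ terminal exon. Among the lowest scores was that of RPS21, of the small subunit, at 0.16, so that no pair of its windows rose far above the gene median.

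**Figure D2:**
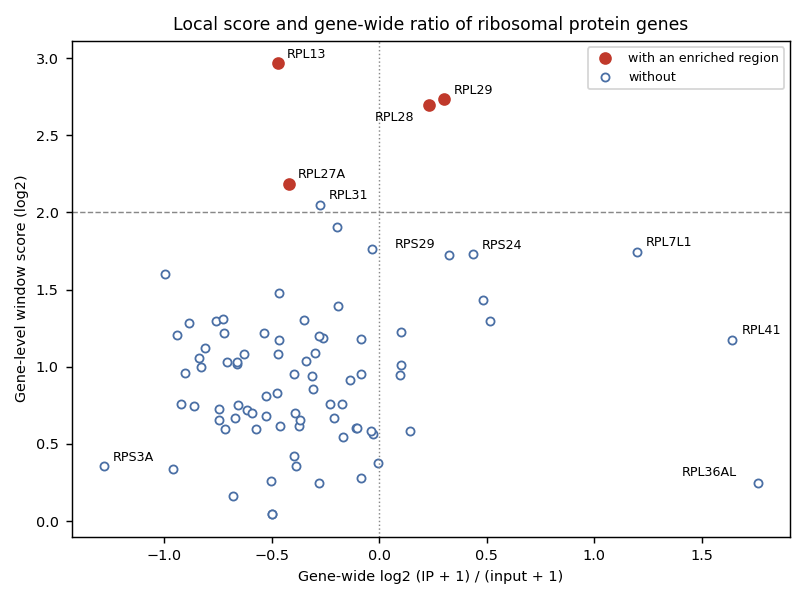
Gene-level window score (log2, y axis) against gene-wide log2 IP over input (x axis) of the 84 measured ribosomal protein genes, with the 4 that have a region filled and the others open; the dashed line marks the threshold of 2. RPL36AL and RPL41 lie far right with scores of 0.25 and 1.18, and RPL13 lies highest with a gene-wide ratio of -0.47.

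Local score and gene-wide ratio picked different genes. RPL36AL, the highest by ratio, had a score of only 0.25. All 9 covered windows of its 3′ terminal exon lay above input, with 113 to 285.5 in the IP and 33.1 to 92.0 in the input. The gene medians, 192 in the IP and 52.2 in the input, carry that enrichment themselves, and the score removes it. RPL41 had its highest window in exon 3, with 2539 in the IP and 731 in the input, and a score of 1.18. In RPL7L1, window 7 of exon 6 had 50.5 in the IP and 8.25 in the input, and the last window had 63.2 in the IP and 6.58 in the input, a ratio of 9.58 (7.78 to 11.9). When windows were scored without centring, regions were called in 7 genes: RPL7L1, RPS24, RPL27A, RPS29, RPL36AL, RPL13 and RPL28. The share of all measured genes without centring is not given here, so this count has no background beside it.

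**Figure D3:**
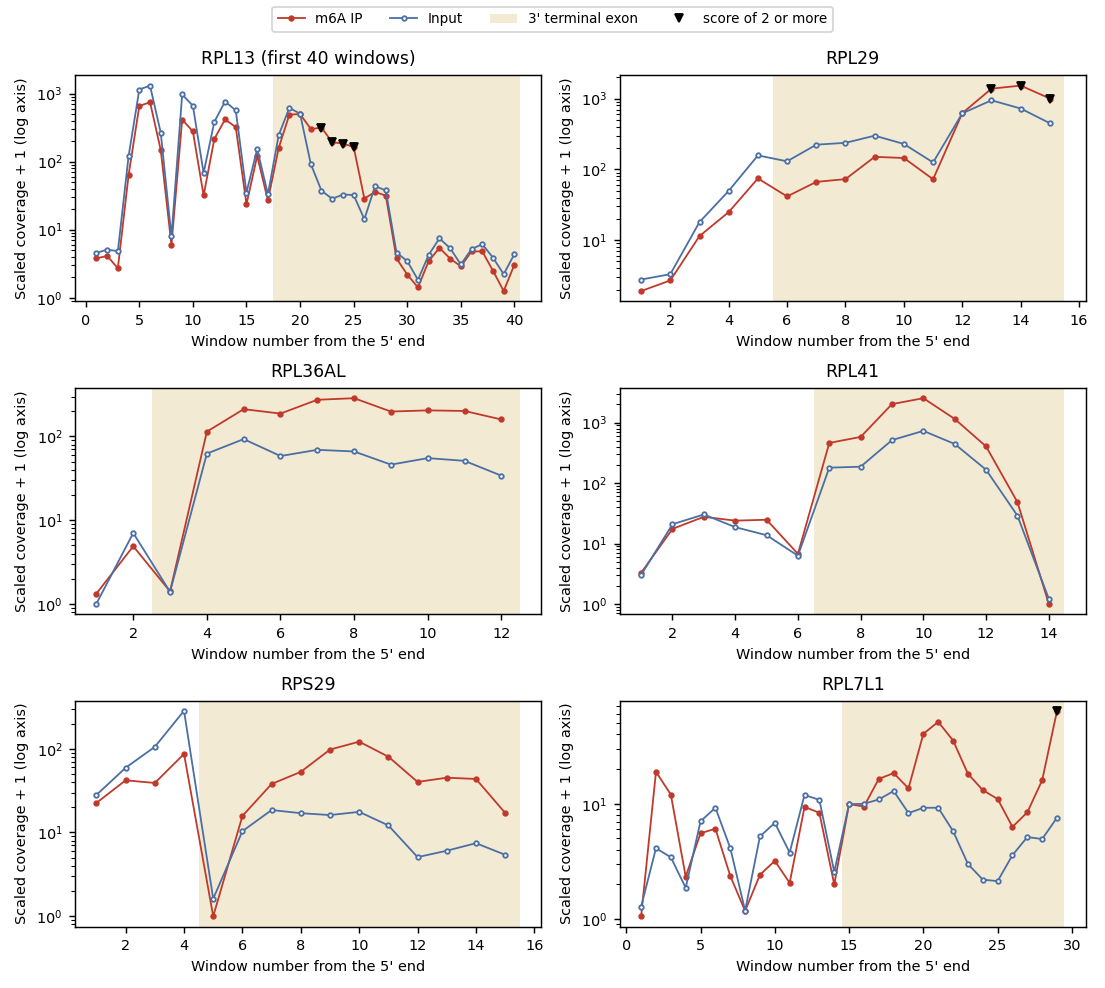
Scaled coverage plus 1 (log axis) in the m6A IP library (filled, red) and the input library (open, blue) along the windows of 6 ribosomal protein genes from the 5′ end, with the 3′ terminal exon shaded and windows scoring at least 2 marked; of RPL13 the first 40 windows are drawn. In RPS29 the IP lies below input upstream and above it in the 3′ terminal exon, and in RPL36AL and RPL41 the IP lies above input through the covered part of that exon.

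Within transcripts, the IP was shifted to the 3′ end. In 65 measured genes with a known strand and a mean input of at least 1 on both sides, the 3′ terminal exon was compared with the other exons, as log2 IP over input of each. The median was -0.01 in the 3′ terminal exon and -0.62 in the other exons. The 3′ terminal exon was higher in 56 of 65 genes (71.6% of 5883 genes of the table) and at least 2-fold higher in 19 (33.5% of those genes), and it was at least 2-fold lower in 0 (6.58%). The median difference was 0.56, against 0.50 over all 5883 genes, whose 2 medians were 0.49 and -0.08. By this median the rise in ribosomal protein genes was near that of all genes, with both parts at a lower level. Among listings of at most 30 windows the median difference was 0.56 in ribosomal protein genes and 0.35 in other genes. Among longer listings it was 0.56 and 0.53.

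RPS29, a small subunit protein whose gene is mutated in Diamond-Blackfan anaemia, had the largest difference of the 65, 3.56. Its 3′ terminal exon had 49.3 in the IP and 9.68 in the input, a ratio of 5.09 (4.71 to 5.50), while the other exons had 46.6 in the IP and 118 in the input, a ratio of 0.394 (0.367 to 0.424). The gene-wide levels, 48.5 in the IP and 38.6 in the input, conceal both. Windows 4 to 7 of that exon had 39.1 to 120.4 in the IP and 4.08 to 16.6 in the input. Most of the input of RPS29 lay outside the annotated terminal exon, since window 1 of exon 2 alone had 85.7 in the IP and 283 in the input. The 3′ ratio thus rests on windows with little input: the highest-scoring one had 1.44% of the gene's highest input. Only 3 windows of RPS29 were well covered, and these had 54.9 in the IP and 148 in the input, a log2 ratio of -1.42. RPS29, RPL36 and the genes of the next sentences that are outside the naming rule were picked after their values were seen.

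After RPS29 came RPL36AL (2.15), RPL7L1 (1.60), RPL41 (1.52) and RPL36 (1.49). RPL36 had 968 in the IP and 433 in the input in its 3′ terminal exon, against 146 in the IP and 184 in the input upstream. RPL13A, a subunit that also takes part in translational silencing of inflammatory mRNAs, had 404 in the IP and 187 in the input in that exon, against 199 in the IP and 224 in the input upstream. In both, the 2 parts of the gene lay on opposite sides of the input.

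RPS24, another Diamond-Blackfan anaemia gene whose last exons are alternatively spliced, could not be placed in this comparison because the annotated terminal exon had only 1.18 in the IP and 0.177 in the input. Along its covered exons the balance still turned. Window 1 of exon 3 had 687 in the IP and 889 in the input. Window 3 of that exon had 816 in the IP and 461 in the input, and window 1 of exon 4 had 783 in the IP and 245 in the input.

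In RPS27L, a paralog of RPS27 that p53 induces, the order was the other way, with a difference of -0.92. Its 3′ terminal exon had 2.44 in the IP and 4.56 in the input, and the other exons had 14.6 in the IP and 12.4 in the input. Differences below 0 were found in 9 of the 65 genes, of which RPL36A (-0.37) and RPS6 (-0.22), the substrate of the S6 kinases, were next.

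**Figure D4:**
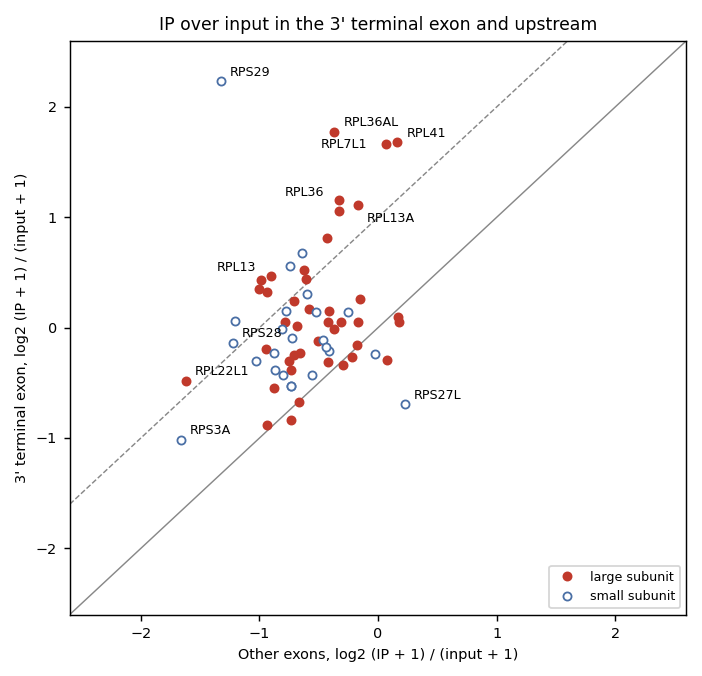
Log2 IP over input of the 3′ terminal exon (y axis) against that of the other exons (x axis) in 65 ribosomal protein genes, large subunit filled and small subunit open; the solid line marks equality and the dashed line 2-fold. Of the genes, 56 lie above the solid line, RPS29 lies furthest above it, and RPS27L furthest below.

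Dividing each transcript into 10 equal parts from the 5′ end gave a profile that does not depend on exon borders; a gene entered a part where its mean input there was at least 1. The median log2 ratio of ribosomal protein genes was -0.44 in part 1, -0.56 in part 3, -0.24 in part 8 and 0.05 in part 10. In other measured genes it was 0.09 in part 1, -0.13 in part 3, -0.03 in part 8 and 0.11 in part 10. By these parts the medians of the 2 groups lay apart over the 5′ portion of the transcript and close together in part 10. By exons they did not draw together. The 3′ terminal exon had -0.01 against 0.49 over all 5883 genes, and the other exons had -0.62 against -0.08. Part 10 does not cover the same piece of the 2 groups, since the 3′ terminal exon had a median of 4 windows in ribosomal protein genes and 25 in other genes.

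**Figure D5:**
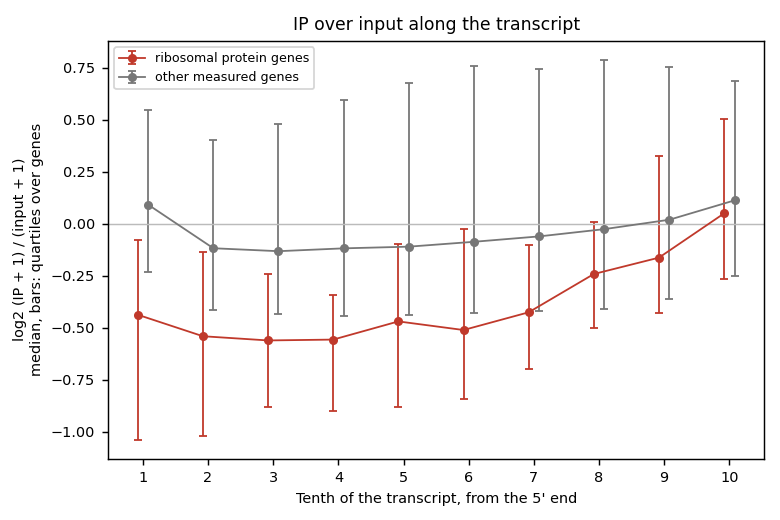
Median log2 IP over input in each of 10 equal parts of the transcript from the 5′ end, for ribosomal protein genes (red, 47 to 66 genes per part) and other measured genes (grey, 4659 to 6015), with bars for the quartiles over genes. The red medians lie below 0 in parts 1 to 9 and reach 0.05 in part 10, where the grey median is 0.11.

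Low windows were no more common than elsewhere. Scores of -2 or less were found in 6 of 2023 windows, and 0.329% of the windows of all measured genes were that low. They lay in 3 genes: windows 1 to 3 of exon 1 of RPS3A, both windows of exon 2 of RPS29 and window 1 of exon 2 of RPL36AL. In RPS3A these are the first windows of the mRNA, with 3.08, 7.24 and 5.14 in the IP and 22.0, 74.8 and 55.6 in the input. Exon 2 of RPS3A had 76.7 in the IP and 204 in the input in its first window, so input also exceeded IP beyond the start.

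Exon structure differed between ribosomal protein genes and the rest mainly in the 3′ terminal exon and in total length. Internal exons had a median of 3 windows in both. Those of up to 5 windows made up 282 of 283 in ribosomal protein genes and 82639 of 87764 in other genes. The longest had 7 windows in ribosomal protein genes and 164 in other genes. The 3′ terminal exon had a median of 4 windows, against 25 in other oriented genes. Whole listings had a median of 18 windows, against 55 over all measured genes. A short listing leaves fewer windows in which a region can be called. Among listings of at most 30 windows, 1 of 68 ribosomal protein genes (1.47%) and 274 of 2491 other genes had a region, and among longer listings 3 of 16 and 4478 of 8192 (54.7%) had. By level, 1 of 48 ribosomal protein genes and 12 of 193 others (6.22%) had a region at an input of at least 100, and 3 of 32 and 526 of 1868 others (28.2%) at 10 to 100. With both limits, an input of at least 100 and at most 30 windows, the counts were 1 of 44 ribosomal protein genes (2.27%) and 2 of 153 others (1.31%). Those others had a median of 4 windows, against 15.5 in the ribosomal protein genes, and a median log2 ratio of -0.86, with 71 of them at least 2-fold lower in the IP, so they are no close match in length or ratio. They also include RPL13AP5, with a gene-level score of 2.64, which has identical values to RPL13A in 17 windows and so is not independent of the family. Short exons also place many windows across exon ends: the last window of an internal exon had a median of 11.4% of the exon's highest input. The part of exon structure in the low count of regions was not tested otherwise.

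By role in the ribosome, the groups differed little. For the counts that follow, a region was found in 4.76% of the measured family and 44.2% of all measured genes. A ratio below 0 was found in 71 of the 84 measured members and 32.7% of all measured genes. The groups are small, and their counts were not tested against these shares. The 51 measured large subunit genes had a median gene-wide log2 ratio of -0.31 with 10 genes at or above 0, and the 33 small subunit genes had -0.50 with 3 at or above 0. The stalk genes RPLP0, RPLP1 and RPLP2 had -0.67, -0.30 and -0.23 and no region. The 18 genes listed as mutated in Diamond-Blackfan anaemia, an inherited red cell aplasia, had 0 regions and a median of -0.42, from -0.94 in RPL27 to 0.44 in RPS24. Of the 25 hosts of small nucleolar RNAs, 2 had a region (RPL13 and RPL27A), which is 8.0% with an interval of 0.98 to 26.0%. The median log2 ratio of the hosts was -0.42. The 7 proteins that bind the p53 ligase MDM2 had 0 regions and a median of -0.31, with all 7 below 0, among them RPL5 (67.8 in the IP, 111 in the input) and RPL11 (171 in the IP, 188 in the input), which act together with 5S rRNA.

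Paralogs had low levels within the family, though RPL36AL lay above several other genes. The 6 measured paralogs had a median input of 8.41, against 121 over the measured family, and a median log2 ratio of 0.03, with 0 regions. RPL36AL had 153 in the IP and 44.4 in the input, against 11.3 and 11.4 for its parent RPL36A, whose 3′ exon had 1.94 in the IP and 2.61 in the input. The RPL36A listing has 49 windows, of which only 3 are well covered, and these had 170 in the IP and 163 in the input. The 9 well covered windows of RPL36AL had 203 in the IP and 58.5 in the input. On well covered windows the parent thus had the higher input. RPL7L1 (13.1 in the IP, 5.15 in the input) stood against RPL7, with 42.1 in the IP and 58.8 in the input. RPL22L1 (4.12 in the IP, 8.93 in the input) stood against RPL22, a protein that binds a small RNA of Epstein-Barr virus, with 31.9 in the IP and 29.6 in the input. In RPL36AL and RPL7L1 the ratio was above the parent's, and in RPL22L1 it was below.

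The remaining paralogs described here lay below their parents in both libraries. RPL26L1 had 8.80 in the IP and 7.88 in the input, against 233 in the IP and 289.7 in the input for RPL26. RPS27L had 7.0 in the IP and 7.49 in the input, against 59.1 in the IP and 76.5 in the input for RPS27. RPL39L, known from testis and some tumours, had 10.4 in the IP and 12.9 in the input, against 82.1 in the IP and 130.5 in the input for RPL39. RPL3L and RPL10L were below the minimum, against 171 in the IP and 222 in the input for RPL3 and 50.6 in the IP and 72.2 in the input for RPL10.

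Reads that cannot be placed limit these levels. Identical values in at least 3 windows under another gene name were found for 8 genes, including RPL13A with RPL13AP5 (17 windows), RPL21 with RPL21P28 and RPL17 with RPL17-C18ORF32 (12 windows each), and RPS10 with RPS10-NUDT3 (11 windows). Ribosomal protein genes have many processed pseudogenes, and how the authors treated reads that match several places is not stated, so levels of single genes, paralogs above all, are uncertain to that extent.

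Other genes of ribosome production were less uniformly low. Of 21 measured mRNAs known to carry a 5′ TOP outside the family, 3 had a region (14.3%) and the median log2 ratio was -0.08. The highest scores were 2.85 for EIF3L, an initiation factor subunit, and 2.84 for EEF1D, an elongation factor subunit, and the lowest was 0.54 for NACA, of the nascent chain complex. Mitochondrial ribosomal protein genes, which encode the ribosome of mitochondria, had a region in 21 of 77 (27.3%, interval 17.7 to 38.6%) and a median log2 ratio of 0.25, led by MRPL35 (5.57) and MRPL17 (4.30) with MRPS11 (0.05) lowest. Level and length moved with this difference: the median input was 121 in the cytosolic and 7.77 in the mitochondrial group, and the median listing had 18 and 28 windows in that order. Their part in it was not tested.

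Factors that build ribosomes and regulators of their translation had shares of genes with a region beside the 44.2% of all measured genes. Of 24 biogenesis factors 13 had one (54.2%, interval 32.8 to 74.4%), with POLR1A, the largest subunit of RNA polymerase I, at 4.92, RRP1B at 4.77 and the nucleolar methyltransferase FBL lowest at 0.82. Of 12 regulators of TOP translation 7 had one (58.3%, interval 27.7 to 84.8%), with TSC1, an inhibitor of mTOR signalling, at 6.10, LARP4 at 5.46 and RHEB, an activator of mTOR, lowest at 0.73. In the surveillance group, MDM2 had 25.2 in the IP and 5.95 in the input and a score of 5.84, whereas its ribosomal protein ligands RPL5 and RPL11 scored 1.03 and 0.91. Median gene-wide log2 ratios were 0.37 for the biogenesis factors and 0.95 for the regulators, beside 0.34 over all measured genes.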

How the data were processed

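Per the file headers the table holds coverage per window, a signal on a scale set by the authors for each library; its factor is not stated. The deposited score is a log2 value, and recomputing it from coverage gave differences of at most 1.7e-14. Per the submitters' processing notes, TopHat 1.1.3 and build hg19 were used. Per the labels' protocols, libraries kept the strand through dUTP. For the coverage program and the annotation, a name is not given in the sources used here.

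All values above 0 (100.0%) were whole multiples of a step per library within 0.01 step. The most common multiple was 37, read as reads of about 37 bases, in windows of about 100 nt every 50 nt. Intervals use the read numbers implied. The longest listing per gene name was kept. Strand came from RefSeq promoters (GRCh38.p14), not known for 18 members. Exon numbers follow genome coordinates: the last-numbered exon was the longer end in 89.0% of 7031 plus-strand genes, and the first-numbered in 88.8% of 6771 minus-strand genes. Distances from transcript ends assume that spacing.

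Each group has 1 library, so no test was run. Members and lists were chosen with earlier results of these data known. Named were members with a region, the 3 highest and 3 lowest by score (without a region), by gene-wide ratio and by input, all paralogs with their parents, and of each other list the 2 highest and 1 lowest by score. Some genes that this names are not reported here or drawn by name. Alternatives changed the number added, centring, threshold, run length, input minimum, listing and windows. Scripts ran in Python 3.11.15 with scipy 1.17.1, pandas 2.3.3, numpy 2.4.6 and, for plots, matplotlib 3.10.9.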

Additional observations from a re-analysis of the deposited data

How the results depend on the processing

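Of 39 alternatives for the group values, 23 stayed within 1.5 times the reported count or within the interval of the reported median or share, and none of the medians of the ratio changed sign. Of 120 for named genes, 112 left unchanged whether the gene had a region, although scores moved, for example from 1.90 to 0.61 in RPL21 without centring. The number of genes with a region (4) was 8 with 0.1 added in place of 1 and 2 with 5 added (RPL29 and RPL13), 7 without centring, 30 at a threshold of 1 and 0 at 3, 8 when single windows counted, 1 for runs of at least 4 windows, and 1 on well covered windows only, which was added after seeing the data. The share of windows above the threshold (0.741%) was 1.83% with 0.1 added, 0.395% with 5 added, 1.73% without centring, and 8.65% and 0.0494% at thresholds of 1 and 3. Except for regions on well covered windows, values of all measured genes under these settings are not given here. Whether the changes are particular to the family therefore cannot be read from them. The median gene-level score (0.95) was 0.25 without centring and 0.67 on well covered windows. The median gene-wide log2 ratio (-0.39) was -0.52 from the deposited gene medians. With 5 added, RPL27A and RPL28 scored 1.35 and 1.65, below the threshold. No paired analysis was possible because each group has 1 library. Windows with few reads set the limit: the calls in RPL27A and RPL28 rest on 33 and 19 input reads at the peak.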
